A study of Mus musculus with 6 samples.

Results

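Transcripts of 9 transient receptor potential (TRP) channels that are known from sensory neurons were examined in RNA of mouse nerves with and without intact Dok6. The channels were chosen by name, as Trpv1, Trpv2, Trpv4, Trpa1, Trpm2, Trpm3, Trpm8, Trpc1 and Trpc6, and they are 9 of the 54532 genes in the table of counts. RNA-seq libraries were made on postnatal day 3 from sciatic nerves of 3 control mice, labelled WT, and of 3 mice mutant for Dok6, with 1 library per mouse. In the mutants, exon 3 of Dok6, which encodes an adaptor protein of receptor tyrosine kinases, was removed from the germline by crossing a floxed allele with EIIA-cre, a Cre that acts in the early fertilized egg, so the deletion was not restricted to a cell type. All mice were on a C57BL/6 background, the controls are described as littermates, and which mice shared a litter is not given in the sources used here. The comparison of the genotypes asks how the RNA of the nerve changes without Dok6 at an age when axons are being sorted and myelinated.

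TRP channels are cation channels, many of them in the plasma membrane, that open in response to stimuli such as heat, cold, irritants, lipids or mechanical and osmotic stress. In somatosensory neurons they turn such stimuli into depolarization at the nerve ending in the skin or viscera. The neurons that express them have their cell bodies in the dorsal root ganglia, while their axons run in nerves such as the sciatic nerve, and several TRP genes are also used by glia, immune cells, blood vessels and neurons of the central nervous system.

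The libraries held between 17699904 and 18678170 counts, so that 3 counts, taken as the smallest detectable level, correspond to between 0.161 and 0.169 CPM (counts per 1000000 counts of the library). Levels are given as CPM scaled by TMM, a normalization for library composition. The counts of Dok6 itself were lower in the mutants, at 17.8, 11.9 and 17.5 CPM in control mice 1 to 3 and 7.26, 5.78 and 7.15 CPM in mutant mice 1 to 3, a log2 fold change of -1.23 ± 0.20 (SE, n = 3 per genotype; edgeR quasi-likelihood test, adjusted p = 0.0118). These counts cover the whole gene, including the exons outside the deletion. The 9 markers of central nervous system cells summed to between 1904 and 2510 CPM in the controls and between 1792 and 2610 CPM in the mutants, with Slc6a5, the transporter of glycinergic neurons, at 177 CPM or above in every library. Of the 9, 1 was called lower and none higher, beside 6.01% and 8.62% of all genes tested. In 2 of them every mutant lay below every control, which held for 18.7% of all genes. Cdh19, a cadherin of Schwann cells and their precursors, stood at 1.09, 0.860 and 1.14 CPM in the controls and 1.87, 9.55 and 3.92 CPM in the mutants. Of the 8 Schwann cell markers 5, Cdh19 among them, were called higher, where 8.62% of all genes tested were. Of the 5, 1 had passed the filter on low counts only with the mutant libraries. The other 3 overlapped between the genotypes, with Sox10, a transcription factor of glia, at 63.4, 42.2 and 108 CPM in controls and 91.3, 144 and 49.4 CPM in mutants, and Mbp, a myelin protein shared with oligodendrocytes, at 175, 108 and 1013 against 750, 2129 and 119 CPM. The libraries labelled sciatic nerve therefore contained RNA of central nervous system genes in both genotypes, and the levels of their Schwann cell markers ranged widely.

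Of the 9 channels, 4 were called higher in the mutants by edgeR's quasi-likelihood test at a Benjamini-Hochberg adjusted p under 0.05, and none was called lower. These were Trpv1, Trpv2, Trpm3 and Trpm8. Among all 17099 genes tested, 8.62% were called higher and 6.01% lower. With the added requirement of a log2 fold change above 2, Trpv1 alone among the 9 passed, against 1.08% of all genes. In 6 channels all 3 mutant libraries lay above all 3 controls, which held for 19.6% of all genes tested, and in 1, Trpc1, all 3 lay below, which held for 18.7%. The median log2 fold change was 0.52 over the 9 channels and 0.01 over all genes. All 9 passed the filter on low counts, but Trpv1 did so only through the mutants, since no control library reached the 0.553 CPM that the filter required in 3 libraries, and Trpc6 also needed the mutants, with 2 controls past it. In whole tissue, more cells of a type and more RNA per cell cannot be told apart. Without control mouse 2 none of the 9 passed the adjusted threshold, and the genes called fell to 56 higher and 12 lower over the whole table.

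**Figure D1:**
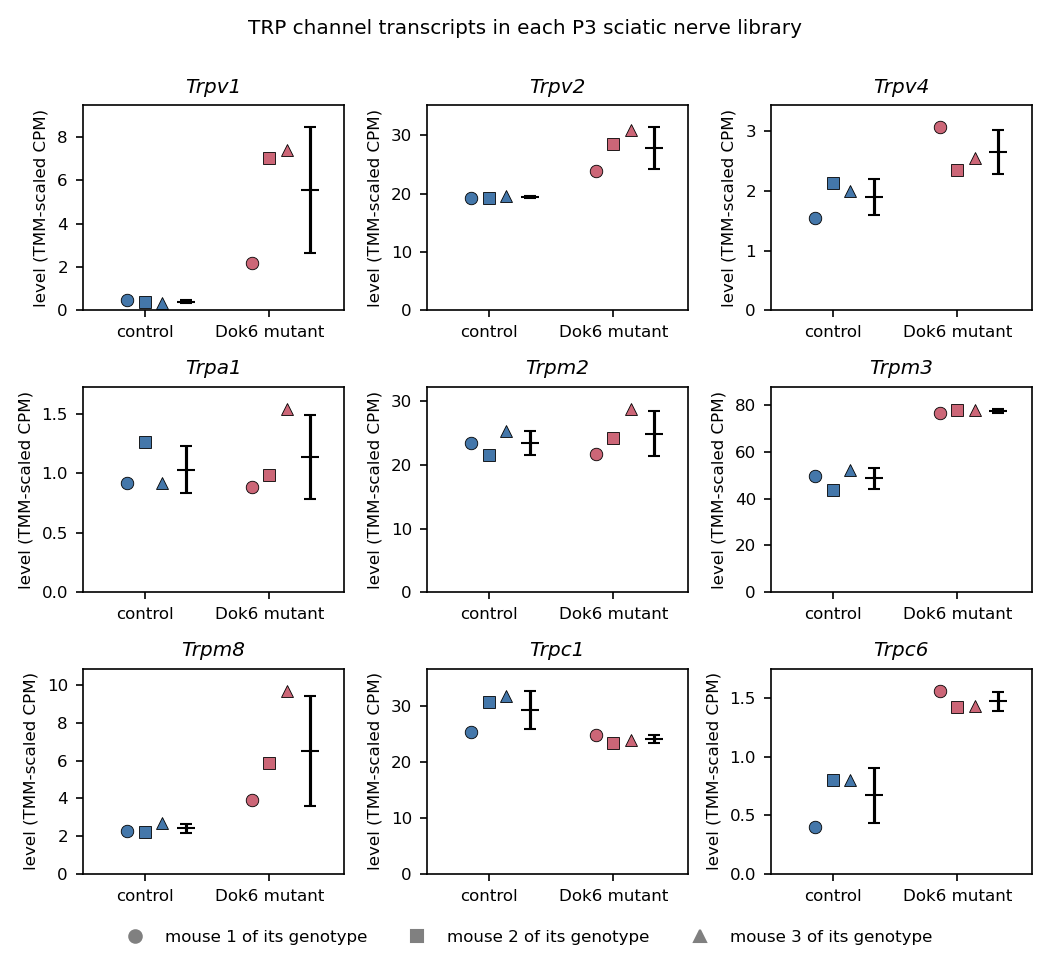
Level of each TRP transcript (y axis, TMM-scaled CPM, each panel from 0 on its own scale) in the 3 control and 3 Dok6 mutant libraries, with symbols for the mouse number within its genotype and a bar for the mean with SD. Trpv1 lies at 0.343 to 0.459 CPM in controls and at 2.18 to 7.37 CPM in mutants, whereas the genotypes overlap for Trpa1 and Trpm2.

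Trpv1, the channel of capsaicin and noxious heat in nociceptors, changed most among the 9 channels. It had 0.459, 0.401 and 0.343 CPM in control mice 1 to 3, which are 8, 7 and 6 counts. In mutant mice 1 to 3 it had 2.18, 7.04 and 7.37 CPM, or 42, 129 and 139 counts. Every mutant library was above every control, and mutant mouse 1 was well below the other two. The mean rose 13.8-fold, from 0.401 ± 0.058 to 5.53 ± 2.90 CPM (SD, n = 3), a log2 fold change of 3.76 ± 0.52 (SE; 95% interval 2.57 to 4.95; edgeR, adjusted p = 0.00809). Without control mouse 2 the log2 fold change was again 3.76 and the adjusted p was 0.0622. The gene (ENSMUSG00000005952) lies at chr11:73234292-73261242 on the plus strand of GRCm38, and none of its exonic bases is shared with another annotated gene. Its promoter is shown because it is the member with the largest change, with a match to the Runx core TGTGGT in capitals. This is the stretch from RefSeq at chr11:73233899-73234148, plus strand of GRCm38.p6, and the match begins 50 bases before the RefSeq start, which lies upstream of the GENCODE start given above.
Trpv1: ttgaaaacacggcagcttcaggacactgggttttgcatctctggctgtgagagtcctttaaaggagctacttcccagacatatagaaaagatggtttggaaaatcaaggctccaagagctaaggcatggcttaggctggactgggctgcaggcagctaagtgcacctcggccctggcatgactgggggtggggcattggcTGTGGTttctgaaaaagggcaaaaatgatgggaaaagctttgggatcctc
TGTGGT occurs on either strand in 14% of 32851 mouse promoter windows of 250 bases, so the match is a description of the sequence and not evidence of binding.

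Trpm8, the menthol and cold receptor of a small class of sensory neurons, was called higher as well. Controls had 2.30, 2.24 and 2.69 CPM and mutants 3.94, 5.89 and 9.70 CPM, or 40, 39 and 47 counts against 76, 108 and 183. The genotypes did not overlap, and mutant mouse 1 was again the lowest of its group. The mean rose 2.71-fold, from 2.41 ± 0.246 to 6.51 ± 2.93 CPM (SD, n = 3), with a log2 fold change of 1.43 ± 0.33 (95% interval 0.68 to 2.19; edgeR, adjusted p = 0.0269). The call was lost without control mouse 1, 2 or 3 (adjusted p = 0.0708, 0.114 and 0.0548) and without mutant mouse 2 (adjusted p = 0.0621), at log2 fold changes of 1.38 to 1.52. Trpm8 (ENSMUSG00000036251, chr1:88277661-88389293, plus strand) shares 388 exonic bases, 8.2% of its exons, with the antisense gene 4930453O03Rik, and whether strand was used in counting is not given in the sources used here. The window before its RefSeq start is printed because it holds a homeodomain core, TAATTA, in capitals, 195 bases before the start. The printed part, chr1:88306485-88306661 on the plus strand, leaves out the bases that GENCODE counts as exon. It lies downstream of the gene start given above, in an intron of the Trpm8 transcripts that begin farther upstream.
Trpm8: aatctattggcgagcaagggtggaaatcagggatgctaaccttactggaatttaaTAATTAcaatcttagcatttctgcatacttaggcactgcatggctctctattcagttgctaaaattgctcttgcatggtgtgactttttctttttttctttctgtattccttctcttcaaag
TAATTA is found in 4.84% of the promoter windows, and TATAAA, found in 12.4%, lies 30 bases before the same start, downstream of the printed stretch.

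Mutant mouse 1 was lowest not only for Trpv1 and Trpm8. The 19 sensory neuron markers summed to between 670 and 787 CPM in the controls and to 868, 1749 and 1703 CPM in mutant mice 1 to 3. Of these markers 12 were called higher and none lower, where 8.62% of all genes were called higher, and 2 of the 12 had passed the filter only with the mutants. In all 12 mutant mouse 1 had the lowest mutant level. Mrgprd, a receptor of nonpeptidergic nociceptors, was at 0 in control mouse 1 and at most 0.115 CPM in the other controls, against 4.88, 17.4 and 8.43 CPM in the mutants, and is among those 2 markers. The ratio of the highest to the lowest mutant library was 3.38 for Trpv1 and 2.46 for Trpm8, against a median of 1.25 over all genes tested. Of the 9 skeletal muscle markers 7 were tested and called higher, but 4 of the 7 were tested only because of their mutant levels, with sums of 15.4 to 24.2 CPM in controls and 595, 317 and 111 CPM in mutant mice 1 to 3. The sums of the fibroblast markers were 299 to 1155 CPM in controls and 2006 to 3177 CPM in mutants, with 4 of 7 called higher, 1 of them tested only because of its mutant levels, and the Schwann cell markers had sums of 193 to 1184 CPM in controls and 307 to 3523 CPM in mutants. No marker of these other lists was at 0 in every library except Tnnc2 of skeletal muscle. The part of these cell types in the TRP values was not tested.

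Trpv1 and Trpm8 were next set against sensory neuron markers counted in the same library, in ratios chosen after the values were seen and given without a test. Per 100 counts of Avil, the actin-binding protein advillin of sensory neurons, Trpv1 had 7.34, 7.69 and 8.22 counts in the controls and 7.79, 7.44 and 8.18 in the mutants. Per 100 counts of P2rx3, the ATP-gated channel of nociceptors, it had 19.5, 17.1 and 23.1 counts in controls and 19.4, 19.9 and 19.7 in mutants. Relative to these genes the genotypes overlapped for Trpv1. Avil and P2rx3 are also the nearest to Trpv1 in pattern over these libraries among 15248 genes compared, so the overlap follows from that likeness. Per 100 counts of Scn10a, the nociceptor sodium channel Nav1.8, Trpv1 had 14.8, 13.7 and 28.6 counts in controls and 4.74, 4.21 and 5.52 in mutants, which all lay below. Per 100 counts of Tac1, the precursor of substance P, which was not called, Trpv1 had 0.823, 0.567 and 0.502 counts in controls and 4.42, 12.2 and 12.5 in mutants. Over the 18 markers with a count in every library, called or not, the Trpv1 ratio was above the controls in all mutants for 11, below for 3 and overlapping for 4. The Trpm8 ratio was above for 6, below for 8 and overlapping for 4, so its order depended on the marker. Per 100 counts of Avil it was 36.7, 42.9 and 64.4 in controls and 14.1, 6.23 and 10.8 in mutants, while per 100 counts of Tac1 it was 4.12, 3.16 and 3.93 in controls and 7.99, 10.2 and 16.5 in mutants.

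**Figure D2:**
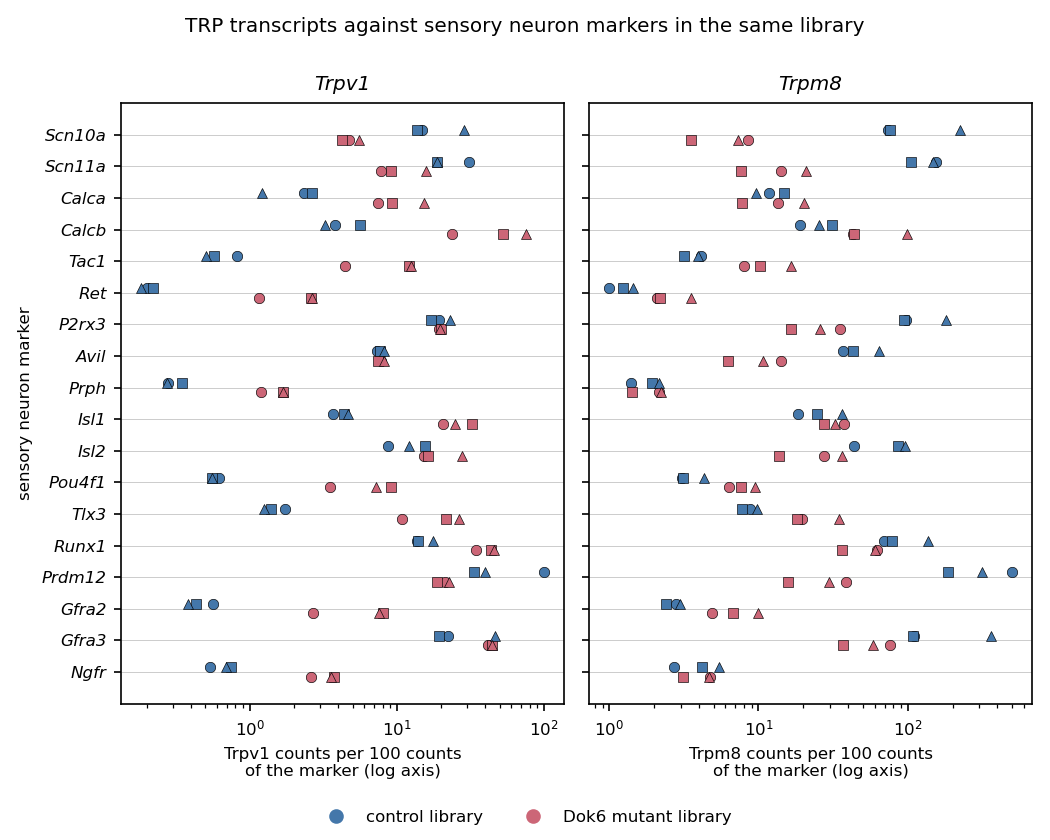
Counts of Trpv1 (left) and Trpm8 (right) per 100 counts of each of 18 sensory neuron markers (x axis, log scale), with controls in blue and Dok6 mutants in red, and circle, square and triangle for mouse 1, 2 and 3 of each genotype. For Avil and P2rx3, which are nearest to Trpv1 in pattern over these libraries, the Trpv1 ratios overlap, from 7.34 to 8.22 and from 17.1 to 23.1. The Trpm8 ratios of the mutants lie below the controls for 8 markers and above them for 6.

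Trpa1, the receptor of mustard oil and other electrophilic irritants, is found in nociceptors that largely also express Trpv1. It had 0.918, 1.26 and 0.915 CPM in the controls and 0.882, 0.982 and 1.54 CPM in the mutants, or 16, 22 and 16 counts against 17, 18 and 29. The genotypes overlapped and Trpa1 was not called, at a log2 fold change of 0.14 ± 0.35 (edgeR, adjusted p = 0.82). The 95% interval of -0.67 to 0.94 does not show equal levels, and without mutant mouse 3 the value was -0.15. Trpv1 had 50, 31.8 and 37.5 counts per 100 counts of Trpa1 in the controls and 247, 717 and 479 in the mutants. The same ratio for Trpm8 per 100 Trpa1 counts was 250, 177 and 294 in controls and 447, 600 and 631 in mutants. These ratios were also chosen after the values were seen, and with 3 against 3 mice an exact two-sided permutation test cannot give a p below 0.10. Trpa1 (ENSMUSG00000032769) lies at chr1:14872648-14918862 on the minus strand.

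The remaining heat-responsive channels differed from each other. Trpm3, which responds to heat and to the steroid pregnenolone sulfate and is also expressed in the brain, had 49.9, 43.9 and 52.3 CPM in controls and 76.6, 78.1 and 78.0 CPM in mutants. The mutants were close together and all above the controls. The mean rose 1.59-fold, from 48.7 ± 4.36 to 77.6 ± 0.836 CPM (SD, n = 3), a log2 fold change of 0.67 ± 0.09 (95% interval 0.47 to 0.88; edgeR, adjusted p = 0.00759). Without control mouse 2 it was 0.60, with an adjusted p of 0.0519. Mutant mouse 1, low in the nociceptor genes, was within 1.02-fold of the other mutants here. Trpm3 (ENSMUSG00000052387, chr19:22139046-22995410, plus strand) shares 2.57% of its exonic bases with C330002G04Rik and Gm27151 on the opposite strand. Its first RefSeq promoter window, at chr19:22138796-22139045 on the plus strand, is shown because it lies before the GENCODE start of the gene, and none of the 3 motifs searched on both strands is in it.
Trpm3: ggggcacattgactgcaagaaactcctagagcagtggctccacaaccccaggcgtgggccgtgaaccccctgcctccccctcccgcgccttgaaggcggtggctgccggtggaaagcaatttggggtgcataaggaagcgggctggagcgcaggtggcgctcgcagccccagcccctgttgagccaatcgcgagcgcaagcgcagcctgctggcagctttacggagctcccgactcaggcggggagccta
The GC content of this window was 66.4%, with 17 CpG dinucleotides, whereas the whole 250-base windows of Trpv1 and Trpm8 had 50.8% and 42.8% GC with 2 and 1 CpG. A second RefSeq window of Trpm3, which overlaps annotated exons, had 59.2% GC with 9 CpG and holds TGTGGT 166 bases before its start.

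Trpm2, a channel gated by ADP-ribose during oxidative stress and known from microglia and macrophages as well as from warmth-sensing neurons, did not pass. It had 23.5, 21.6 and 25.4 CPM in the controls and 21.8, 24.2 and 28.8 CPM in the mutants, and the genotypes overlapped. The log2 fold change was 0.08 ± 0.13 (95% interval -0.22 to 0.38; edgeR, adjusted p = 0.687), and -0.03 without mutant mouse 3. The gene (ENSMUSG00000009292, chr10:77907722-77970563, minus strand) contains 2 snoRNA genes in 0.73% of its exonic bases. Counts of Trpm3 per 100 counts of Trpm2 were 212, 203 and 206 in controls and 351, 323 and 271 in mutants.

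Trpv2, a relative of Trpv1 found in large sensory neurons, motor neurons and macrophages, showed a smaller rise. It had 19.3, 19.3 and 19.6 CPM in controls and 23.8, 28.5 and 30.9 CPM in mutants, with no overlap. The mean rose 1.43-fold, from 19.4 ± 0.151 to 27.7 ± 3.65 CPM (SD, n = 3), and the log2 fold change was 0.52 ± 0.12 (95% interval 0.24 to 0.80; edgeR, adjusted p = 0.0295). The call held without mutant mouse 1 (adjusted p = 0.0334) and was lost when any other mouse was left out: adjusted p was 0.0643, 0.115 and 0.0589 without control mouse 1, 2 and 3, and 0.0888 and 0.057 without mutant mouse 2 and 3. The 9 macrophage and microglia markers summed to between 59.2 and 92.2 CPM in controls and between 107 and 138 CPM in mutants, with 1 of 9, Tmem119, called higher and none at 0, a share near the 8.62% of all genes. The 4 motor neuron markers summed to 95.2 to 122 CPM in controls and 77 to 106 CPM in mutants, with 1 called lower, where 6.01% of all genes were. The part of these cells in the Trpv2 difference was not tested. Trpv2 (ENSMUSG00000018507) lies at chr11:62574486-62600515 on the plus strand, and the window before its first RefSeq start, chr11:62574236-62574485, is printed beside that of its relative Trpv1 on the same chromosome.
Trpv2: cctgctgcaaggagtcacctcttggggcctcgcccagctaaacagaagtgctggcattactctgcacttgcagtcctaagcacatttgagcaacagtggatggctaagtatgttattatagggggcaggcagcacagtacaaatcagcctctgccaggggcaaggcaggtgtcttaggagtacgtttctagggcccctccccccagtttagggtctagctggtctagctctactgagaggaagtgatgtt
It holds none of the motifs searched, has 53.2% GC with 2 CpG and lies wholly before the first annotated exon.

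The channels left, Trpv4, Trpc6 and Trpc1, were not called. Trpv4, opened by cell swelling and warmth and present in endothelium and epithelium, had 1.55, 2.12 and 2.00 CPM in controls and 3.06, 2.35 and 2.54 CPM in mutants. Every mutant was above every control, with a log2 fold change of 0.49 ± 0.26 (95% interval -0.10 to 1.07; edgeR, adjusted p = 0.221). The 6 endothelial markers summed to 165 to 260 CPM in controls and 286 to 398 CPM in mutants, with 3 called higher, where 8.62% of all genes were, and none at 0, and their part was not tested. The gene (ENSMUSG00000014158) is at chr5:114622152-114658421 on the minus strand.

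Trpc6, a diacylglycerol-gated channel of smooth muscle and neurons, was the member nearest to the threshold among those not called. It had 0.402, 0.803 and 0.801 CPM in controls and 1.56, 1.42 and 1.43 CPM in mutants, which are 7, 14 and 14 counts against 30, 26 and 27. The genotypes did not overlap, and unlike for Trpv1 the highest mutant was mouse 1. The log2 fold change was 1.13 ± 0.36 (95% interval 0.31 to 1.94; edgeR, adjusted p = 0.0656). Smooth muscle and pericyte markers summed to 148 to 234 CPM in controls and to 516, 247 and 285 CPM in mutant mice 1 to 3, with none of 6 called by edgeR, 4 higher at an unadjusted p under 0.05 and none at 0. Over all genes 8.62% were called higher. Acta2 and Myh11 missed the threshold narrowly, each at an adjusted p of 0.0502, with edgeR log2 fold changes of 3.69 ± 1.06 and 3.92 ± 1.13. In these 2 every mutant lay above every control, and in 1, Tagln, every mutant lay below. The part of these markers in the Trpc6 values was not tested. The gene (ENSMUSG00000031997, chr9:8544142-8680741, plus strand) has stretches of at least 200 bases with 95% or higher identity in transcripts of 14 other genes, so its low counts are uncertain.

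Trpc1, a broadly expressed subunit of receptor-operated channels, was the single member whose mutants all lay below the controls. It had 25.4, 30.7 and 31.9 CPM in controls and 24.9, 23.5 and 24.0 CPM in mutants, and control mouse 1 lay just above the highest mutant. The log2 fold change of -0.28 ± 0.11 (95% interval -0.54 to -0.02) was not called (edgeR, adjusted p = 0.124). Counts of Trpm3 per 100 counts of Trpc1 were 196, 143 and 164 in controls and 308, 333 and 325 in mutants. Trpc1 (ENSMUSG00000032839) lies at chr9:95705082-95750375 on the minus strand.

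Levels of different channels can be set side by side per kilobase of transcript, as RPKM computed with the gene lengths given by the authors. In the controls the mean order was Trpm3 (6.04 RPKM), Trpv2 (4.32), Trpc1 (3.65), Trpm2 (1.89), Trpm8 (0.509), Trpv4 (0.464), Trpa1 (0.242), Trpc6 (0.132) and Trpv1 (0.109). The control libraries of Trpm8 and Trpv4 overlapped (0.472 to 0.568 and 0.38 to 0.52 RPKM), as did those of Trpc6 and Trpv1 (0.0793 to 0.158 and 0.0932 to 0.125), so these neighbours were not ordered beyond their spread. Trpv1 was thus among the lowest in controls, and at 1.50 RPKM in the mutants (0.592 to 2.00) its libraries overlapped those of Trpm2 (mean 2.00, from 1.75 to 2.31), Trpm8 (1.38, from 0.833 to 2.05) and Trpv4 (0.65, from 0.575 to 0.751). Trpm3, Trpv2, Trpc1 and Trpm2 kept their order of means. For Trpm3 the place depends on the length used: with the 24437 exonic bases of GENCODE M21 in place of the 8061 bases given by the authors, its means were 1.99 RPKM in controls and 3.17 RPKM in mutants.

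The genes whose pattern over the 6 libraries was most like that of Trpv1 were listed by the root mean square distance of centred log2 CPM, among the 15248 genes that reached 1 CPM in each library of their higher genotype. They were Avil (distance 0.16), P2rx3 (0.18), Ppm1j, a protein phosphatase (0.22), Slc17a7, a vesicular glutamate transporter (0.28), and Acpp, an ecto-phosphatase of nonpeptidergic nociceptors (0.36). Their log2 fold changes lay between 3.25 for Ppm1j and 3.76 for Avil and P2rx3, and like Trpv1 they had their lowest mutant level in mouse 1. Nearest to Trpm8 were Prokr1, a prokineticin receptor (0.22), Lix1 (0.22), P4ha1, a collagen prolyl hydroxylase subunit (0.22), Ccl28, a chemokine (0.23), and Gm45847 (0.24), with log2 fold changes of 1.40, 1.27, 1.24, 1.08 and 1.04. None of these 5 is on the sensory neuron list. Nearest to Trpa1 were Ing2 (0.07), Gm45133 (0.08), Gm8773 (0.10), A330102I10Rik (0.10) and Lck (0.10), of which none was called. With 6 libraries, and patterns set mostly by the genotypes, these distances are descriptions.

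The rest of the TRP superfamily was described in the same way. Of 19 further members of the superfamily 14 were tested, and edgeR called 0 in either direction, with 2 higher and 1 lower at an unadjusted p under 0.05. Beside the 8.62% called higher and 6.01% called lower of all genes, 0 of 14 does not set these genes apart. Their median log2 fold change was 0.20. Trpm6, a magnesium channel, had 0.402, 0.459 and 0.515 CPM in controls and 0.571, 1.20 and 1.01 CPM in mutants, with a log2 fold change of 1.00 ± 0.42 (adjusted p = 0.133), and passed the filter only through the mutants. Pkd2, a polycystin of primary cilia, had a log2 fold change of 0.31 ± 0.09 (adjusted p = 0.0586). Trpv6, a calcium channel that shares near-identical sequence with Trpv5, had -0.40 ± 0.17 (adjusted p = 0.138). Trpv3, the warmth channel of keratinocytes and the neighbour of Trpv1 on chromosome 11, had 1.26 CPM in all 3 controls and 0.467, 1.80 and 2.01 CPM in the mutants, which overlap (log2 fold change 0.17 ± 0.49, adjusted p = 0.831). The 5 genes not tested were Mcoln2, Mcoln3, Trpm1, Trpv5 and Trpc2, of which Trpc2 had no count in any library and lies wholly within the exons of Xntrpc and Xndc1.

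**Figure D3:**
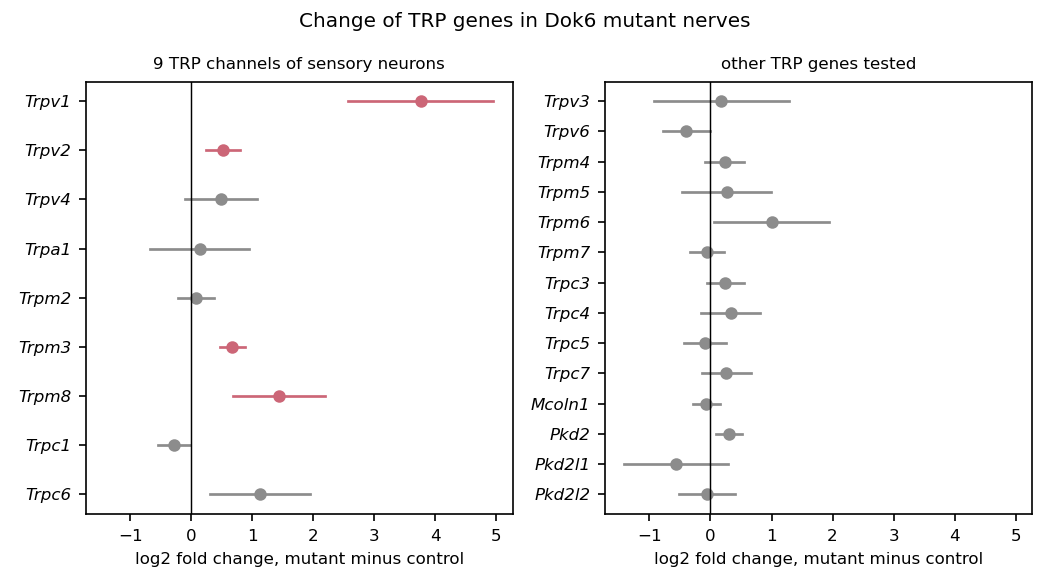
Log2 fold change, Dok6 mutant minus control (x axis), of the 9 TRP channels of sensory neurons (left) and of the 14 other TRP genes tested (right), with bars for the 95% interval and red for genes called higher at an adjusted p under 0.05. On the left 4 genes are red, with Trpv1 at 3.76, and on the right none is.

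Of 15 regulators and signaling partners of TRP channels, the fit tested 13 and called 4 higher and 0 lower, at a median log2 fold change of 0.04, where 8.62% of all genes were called higher and 6.01% lower. Pirt, a phosphoinositide-binding membrane protein that enhances Trpv1 and Trpm8 activity, had 4.13, 4.47 and 5.09 CPM in controls and 35.4, 115 and 104 CPM in mutants, a log2 fold change of 4.21 ± 0.43 (edgeR, adjusted p = 0.00519). Its lowest mutant level was in mouse 1, as for Trpv1. Plcb3, a phospholipase C that acts downstream of itch and inflammatory receptors, had 25.7, 18.6 and 30.0 CPM in controls and 55.8, 81.4 and 60.0 CPM in mutants (1.41 ± 0.20, adjusted p = 0.00832). Tmem100, an adaptor of Trpa1 and Trpv1 that is also expressed in endothelium, had 17.3, 20.1 and 20.2 CPM in controls and 35.6, 32.0 and 23.3 CPM in mutants (0.66 ± 0.16, adjusted p = 0.0336). Prkca, a protein kinase C, had a log2 fold change of 0.44 ± 0.10 (adjusted p = 0.0244). The other regulators tested were not called, among them the kinases Prkce (-0.23 ± 0.10, adjusted p = 0.153) and Cdk5 (-0.17 ± 0.09, adjusted p = 0.211), the scaffold Akap5 (-0.18 ± 0.12, adjusted p = 0.344) and the trafficking protein Gabarap (-0.05 ± 0.07, adjusted p = 0.674). F2rl1, a protease receptor upstream of Trpv1 and Trpa1, was too low to be tested, with 0.172, 0.0573 and 0.172 CPM in controls and 1.40, 0.545 and 0.371 CPM in mutants.

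Of 7 other thermo- and mechanosensitive channels all were tested, 4 were called higher and none lower, beside 8.62% and 6.01% of all genes, with a median log2 fold change of 0.95. One of the 4, Kcnk18, was tested only because of its mutant levels. Piezo2, the mechanotransduction channel of touch and proprioception, had 26.0, 25.3 and 22.6 CPM in controls and 69.7, 171 and 178 CPM in mutants, a log2 fold change of 2.50 ± 0.32 (edgeR, adjusted p = 0.00716). Kcnk18, the potassium channel TRESK of sensory neurons, had 7, 0 and 1 counts in the controls and 35, 108 and 83 in the mutants (adjusted p = 0.0131). No control reached the 0.553 CPM of the filter, and with so few control counts its fold change is not given. In Piezo2 and Kcnk18 the lowest mutant was mouse 1. Ano1, a calcium-activated chloride channel coupled to Trpv1 and also present in smooth muscle, had 5.39, 4.30 and 4.46 CPM in controls and 14.5, 7.58 and 7.21 CPM in mutants (1.05 ± 0.29, adjusted p = 0.0434). Piezo1, a mechanosensitive channel of vessels and other non-neuronal cells, had 15.4, 9.29 and 8.35 CPM in controls and 22.8, 18.8 and 22.1 CPM in mutants (0.95 ± 0.23, adjusted p = 0.0303). In Ano1 and Piezo1 the highest mutant was mouse 1. The potassium channels Kcnk10 (0.64 ± 0.19, adjusted p = 0.052), Kcnk2 (0.34 ± 0.14, adjusted p = 0.12) and Kcnk4 (0.23 ± 0.24, adjusted p = 0.522) were not called.

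**Figure D4:**
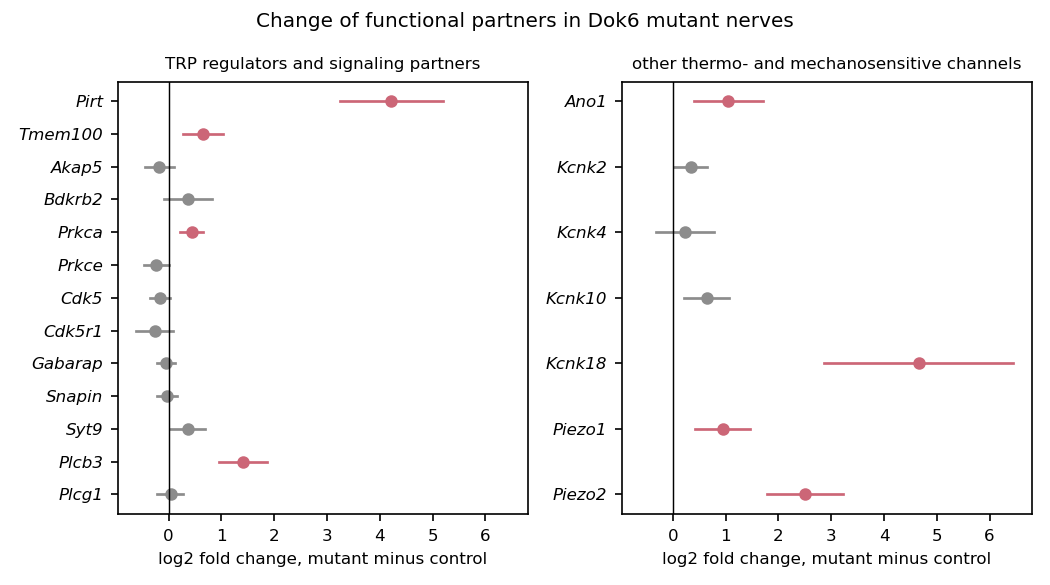
Log2 fold change, Dok6 mutant minus control (x axis), of 13 TRP regulators and signaling partners (left) and 7 other thermo- and mechanosensitive channels (right), with bars for the 95% interval and red for genes called higher at an adjusted p under 0.05. Pirt lies at 4.21 and Piezo2 at 2.50, the plotted value of Kcnk18 rests on 7, 0 and 1 control counts, and no gene was called lower.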

How the data were processed

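RNA was sequenced from 3 control and 3 Dok6 mutant sciatic nerves. The authors deposited raw counts, that is, the unnormalized number of reads assigned to a gene in each mouse, and the table also gives a gene length. The submitters' processing notes name mm10. The aligner, the counting tool and the use of strand are not given in the sources used here. The labels name a NEBNext Ultra kit and the methods a directional version of it.

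Columns were matched to samples by genotype and mouse number. Genes kept by filterByExpr (17099 of 54532) entered 1 quasi-likelihood fit of edgeR 4.0.16 in R 4.3.3 with TMM scaling and no block, with Benjamini-Hochberg adjustment across the genes kept. The standard error was derived from the test's F statistic. The biological coefficient of variation was 16.6%. On simulated counts for these libraries (17099 genes), edgeR recovered 88 of 100 genes changed by 1 on the log2 scale and 100 of 100 changed by 2, with 12 false calls. The simulation gave every gene the same dispersion and placed changes only in genes above a minimum mean count. It therefore does not describe channels with low counts or a wider spread between mice. P-values measure the spread between these mice, and floors cover counting error only. Replicates of a genotype differed by more than sampling noise (chi-square per degree of freedom 8.86 to 33.3).

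The members and lists were chosen with earlier results of these data known, and 2 listed genes are not reported here. Named are all 9 channels, genes of the TRP, regulator and channel lists, Dok6, up to 3 markers per list, and for Trpv1, Trpa1 and Trpm8 the 5 genes nearest in pattern (log2 CPM, prior count 2). Positions and overlaps came from GENCODE M21 on GRCm38, near-identical transcripts from BLAST 2.17.0, and promoters from the RefSeq table, which holds 8 of the 9 channels. Alternatives were DESeq2 1.42.0, limma 3.58.1 voom, other scalings and filters, the replicate number as a block, and leaving out each mouse.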

Additional observations from a re-analysis of the deposited data

How the results depend on the processing

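Of the 9 channels, the number called higher was 4 with DESeq2, RLE size factors, upper-quartile scaling and no filter, and 3 with limma voom, where Trpm8 had an adjusted p of 0.0506, and with at least 10 counts in every library, where Trpv1 and Trpc6 could not be tested. With a log2 fold change above 2 it was 1, and with 1 mouse left out in turn it ranged from 0 to 4. None was called lower in any of these fits. The same fits called 1815 genes higher and 1530 lower over the whole table with DESeq2, 1344 and 1030 with limma voom, 1445 and 1125 with RLE, 1494 and 1007 with upper-quartile scaling, 1884 and 1133 with no filter, and 1419 and 962 with at least 10 counts. Over all genes, 185 higher and 19 lower passed the log2 fold change of 2, and leaving out 1 mouse gave 56 to 1671 higher (0 members and 56 genes without control mouse 2) and 12 to 1233 lower, against 1474 and 1028 with all mice. Removing a mouse leaves fewer samples in the fit, and why control mouse 2 mattered most was not tested. The log2 fold changes with 1 mouse left out lay between 3.50 and 4.14 for Trpv1, 0.43 and 0.62 for Trpv2, 0.60 and 0.73 for Trpm3, and 1.03 and 1.69 for Trpm8.

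With the replicate number as a block, 2 channels were called higher (Trpv1 and Trpm3), with adjusted p-values of 0.0749 for Trpv2 and 0.0538 for Trpm8, and 432 genes higher and 130 lower over the whole table. The sources used here do not say whether the mouse numbers pair the samples. Deviations from the group means of same-numbered mice correlated at -0.00781, -0.168 and -0.243, and 0 of 6 libraries correlated best with the library of its own number. With so few mice, centred on their own group means, these correlations cannot decide whether same-numbered mice shared a litter or a batch. Trpv1 in the controls, at 6 to 8 counts, and Trpa1 and Trpc6, at 7 to 30 counts, are limited by depth.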
